A study of Mus musculus with 27 samples.

Results

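Cyp1a1 encodes a cytochrome P450 that oxidises polycyclic aromatic hydrocarbons, and its mRNA differed widely between lungs that had been given the same suspension of combustion products. The comparison described here set the 6 combustion-exposed lungs with the most Cyp1a1 mRNA against the 6 with the least. The libraries were chosen by that measured value alone: within each of the 2 combustion-exposed groups of 7, libraries were ranked by log2(TPM + 1) of Cyp1a1, and the 3 highest formed the high class and the 3 lowest the low class. TPM is transcripts per M (M, mega), a level scaled to gene length and library. The classes hold 12 of the 27 libraries of the series, and the 1 middle library of each group was left out.

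Whole lungs of male C57Bl/6J mice of 7 to 8 weeks were profiled by polyA-selected RNA sequencing. HDM_CP mice (n = 7) had 5 oropharyngeal instillations of 10 µg of HDM in 50 µl, that is, extract of house dust mite, which provokes allergic airway inflammation. They then received CP, the combustion products of a mix of plywood, plastic and paper. PBS_CP mice (n = 7) had phosphate-buffered saline (PBS) in place of HDM and then CP. HDM_SAL mice (n = 6) and PBS_SAL mice (n = 7) had HDM or PBS and then saline. CP was given once, as 100 µl at 2 mg per ml, 24 h after the last HDM or PBS instillation, and lungs were taken 24 h later. How much of it reached each lung was not measured in the files used here, so Cyp1a1 is at most a stand-in for that amount. The labels number the libraries but do not name the animals, and p-values measure only the spread between these samples.

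The aryl hydrocarbon receptor is a ligand-activated transcription factor that sits in the cytoplasm with Hsp90 and its partner proteins. Bound by polycyclic aromatic hydrocarbons such as those of smoke, it enters the nucleus, pairs with ARNT and binds DNA at sites whose core is GCGTG, from which it switches on Cyp1a1, Cyp1b1 and its own repressor Ahrr. In lung, endothelial cells, club cells and alveolar type 2 cells are known sites of Cyp1a1 induction. Products of this chemistry can also release the antioxidant regulator Nrf2, encoded by Nfe2l2, and Nqo1 is a target of both factors.

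The 250 bases upstream of the start of 4 target genes are shown because they hold the core in this window. They were read from RefSeq's promoter table of the GRCm38.p6 build, the strand is that of the gene, and capitals mark each GCGTG or, on the other strand, CACGC. The windows lie at chr9:57697363-57697612 (plus strand, Cyp1a1), chr17:79715062-79715311 (minus strand, Cyp1b1), chr13:74292332-74292581 (minus strand, Ahrr) and chr3:65528197-65528446 (plus strand, Tiparp).
Cyp1a1: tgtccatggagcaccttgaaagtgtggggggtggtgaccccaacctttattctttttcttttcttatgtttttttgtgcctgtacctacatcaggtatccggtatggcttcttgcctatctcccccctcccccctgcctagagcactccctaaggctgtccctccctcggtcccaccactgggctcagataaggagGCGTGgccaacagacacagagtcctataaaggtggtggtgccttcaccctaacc
Cyp1b1: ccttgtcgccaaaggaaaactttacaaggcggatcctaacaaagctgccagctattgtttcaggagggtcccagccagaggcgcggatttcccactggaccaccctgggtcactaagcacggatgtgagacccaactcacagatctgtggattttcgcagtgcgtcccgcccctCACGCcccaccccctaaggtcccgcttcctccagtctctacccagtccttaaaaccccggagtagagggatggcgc
Ahrr: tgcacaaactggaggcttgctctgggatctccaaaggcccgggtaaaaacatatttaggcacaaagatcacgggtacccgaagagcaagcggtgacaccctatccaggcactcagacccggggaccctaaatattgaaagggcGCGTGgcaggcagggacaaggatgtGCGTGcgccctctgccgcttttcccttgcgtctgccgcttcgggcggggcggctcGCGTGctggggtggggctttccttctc
Tiparp: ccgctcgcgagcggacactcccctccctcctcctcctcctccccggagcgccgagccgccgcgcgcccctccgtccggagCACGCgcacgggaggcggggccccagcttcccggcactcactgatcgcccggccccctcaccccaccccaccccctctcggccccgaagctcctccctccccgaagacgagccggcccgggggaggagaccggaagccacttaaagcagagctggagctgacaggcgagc
Ahrr held 3 copies and the other 3 genes 1 copy each. Of the 17 target genes listed, 14 matched the table by symbol, with 15 windows, and 4 of these windows had the core upstream. The core stood in 28.2% of the upstream windows of all 32851 promoters on either strand, so its presence alone is common. The 4 genes did not share a pattern in the lungs: Cyp1b1 and Ahrr were higher in lungs with high Cyp1a1 and Tiparp was not, as described below.

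Cyp1a1 (ENSMUSG00000032315.7, chromosome 9 from 57595211 to 57611107 on GRCm39, the build of the deposited tables) ranked the libraries, and its levels are therefore given as a description with no test. In HDM_CP lungs it stood at 447, 249 and 236 TPM in the high libraries 96, 49 and 98, against 80.8, 52.3 and 48.3 TPM in the low libraries 66, 45 and 67. The library left out of HDM_CP, number 97, had 216 TPM and so lay much nearer to the high class than to the low one. PBS_CP lungs had 813, 517 and 303 TPM in the high libraries 102, 76 and 101, against 96.4, 87.0 and 34.0 TPM in the low libraries 59, 75 and 58. The library between them, number 57, had 204 TPM. The highest library exceeded the lowest 9.25-fold in HDM_CP and 23.9-fold in PBS_CP, against 3.40-fold in HDM_SAL and 2.03-fold in PBS_SAL.

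Saline lungs had 12.9 to 43.8 TPM of Cyp1a1 in HDM_SAL (median 20.6) and 13.5 to 27.4 TPM in PBS_SAL (median 21.3). The lowest combustion-exposed library, PBS_CP 58, thus lay below the highest saline library, HDM_SAL 54, and every other combustion-exposed library lay above all saline libraries. Means over the classes were 311 ± 119 TPM in high and 60.5 ± 17.7 TPM in low HDM_CP lungs (SD, n = 3 each), a ratio of 5.14. In PBS_CP they were 544 ± 256 TPM in high and 72.5 ± 33.7 TPM in low lungs (SD, n = 3 each), a ratio of 7.51.

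**Figure D1:**
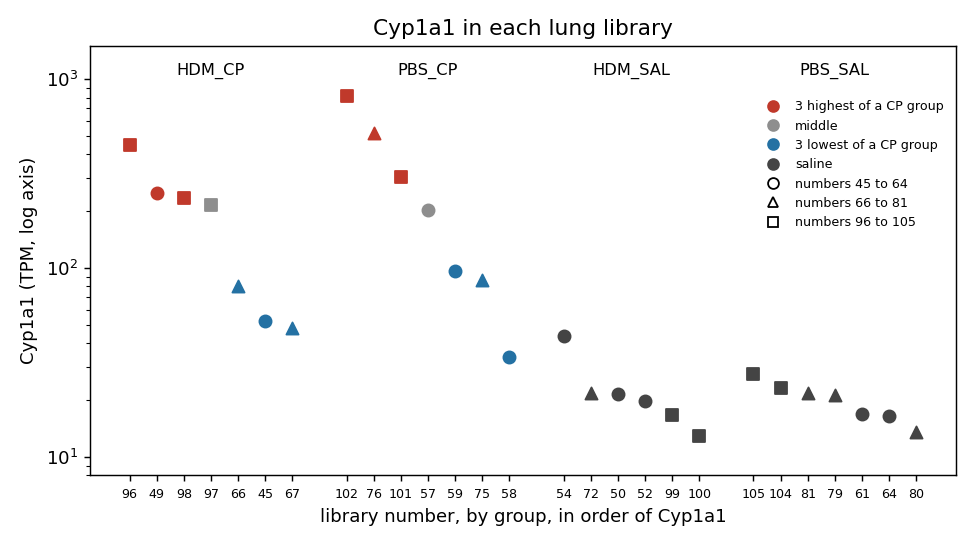
Cyp1a1 level (TPM, log axis) of each of the 27 libraries, by group and in order of the level, with colours for the classes and marker shapes for the 3 runs of library numbers. The high classes begin at 236 TPM in HDM_CP and 303 TPM in PBS_CP, above all saline libraries, and 4 of the 6 high libraries carry numbers from 96 to 105.

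Library totals ran from 56.3 M to 84.5 M estimated counts over the series, with 56.5 M to 84.5 M in the 6 high and 66.3 M to 78.9 M in the 6 low libraries. Library numbers fall into 3 runs (45 to 64, 66 to 81, 96 to 105), which the labels do not call batches. The last run held 4 of the 6 high and 0 of the 6 low libraries, the first run 1 high and 3 low, and the middle run 1 high and 3 low. Rn18s-rs5, a ribosomal RNA sequence, stood at 1478 to 3097 TPM in high and 1340 to 1433 TPM in low HDM_CP lungs. In PBS_CP lungs it stood at 1548 to 4035 TPM in high and 1167 to 1417 TPM in low ones. Within a run it was nearly level between the classes, at 1478 against 1433 TPM (49 and 45) and 1548 against 1417 TPM (76 and 75). Last-run libraries outside the classes had 2876 TPM (HDM_CP 97), 2197 and 2563 TPM (HDM_SAL 99 and 100), and 1538 and 2224 TPM (PBS_SAL 104 and 105). Its higher levels thus mostly went with the last run, which holds most of the high class. Within HDM_CP 1 high and 1 low library share a run (49 and 45), and within PBS_CP 1 high and 1 low (76 and 75). Values of these pairs are given below for some genes, with no test. Without the last run, 49 and 76 are the only high libraries left. With run as a covariate, the last run holds no low library to compare with. That fit, the fit without the last run and the pairs thus rest on the same high libraries and are not separate checks. The lung label fits the markers: the 12 alveolar type 2 genes summed to between 32182 and 41647 TPM in the class libraries.

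With group as a covariate, edgeR's quasi-likelihood test called 0 of 22720 genes other than Cyp1a1 between the classes at an adjusted p under 0.05 (0%), and the smallest adjusted p was 0.428. Unadjusted p was under 0.05 for 933 genes (4.11%), 514 higher (2.26%) and 419 lower (1.84%) in the high class. DESeq2 called 20 genes on the same libraries, 18 higher and 2 lower, while limma voom with sample quality weights called 0, with 1420 genes at an unadjusted p under 0.05. Every high library lay above every low library, in HDM_CP and in PBS_CP, for 80 genes (0.352%), and every one lay below for 30 (0.132%). The typical standard error was 0.087 on the log2 scale over the 14980 genes whose mean log2 CPM (counts per M) reached 1. A gene's difference here is thus an association with Cyp1a1 over libraries that were not assigned to classes, and the genes below are described with their values as not called by the edgeR test. The share at an unadjusted p under 0.05 dropped to 2.56% (581 genes, 0 called, 0%) with run as a covariate.

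Among the receptor's targets the smallest p was that of the cytochrome Cyp1b1 (chromosome 17 from 80008966 to 80022490, minus strand), which oxidises the same kinds of hydrocarbon. In HDM_CP lungs Cyp1b1 stood at 49.0, 42.4 and 25.9 TPM in the high libraries 96, 49 and 98, against 13.4, 16.5 and 10.4 TPM in the low libraries 66, 45 and 67. Every high library lay above every low one there. PBS_CP lungs had 35.4, 44.9 and 22.3 TPM of Cyp1b1 in the high libraries 102, 76 and 101, against 21.0, 24.3 and 12.5 TPM in the low libraries 59, 75 and 58. In PBS_CP the classes overlapped, since low library 75 exceeded high library 101. Saline lungs had 1.41 to 13.6 TPM in HDM_SAL (median 5.82) and at most 5.62 TPM in PBS_SAL (median 4.56). All class libraries thus lay above both saline medians, although low HDM_CP libraries 66 and 67 and low PBS_CP library 58 lay below the highest HDM_SAL library. High against low gave a log2 fold change of 1.19 ± 0.26 (SE; 95% interval 0.67 to 1.70; unadjusted p = 0.00085, adjusted p = 1.00), with 1.54 within HDM_CP and 0.83 within PBS_CP. DESeq2 gave an adjusted p of 0.028 for Cyp1b1, and with run as a covariate the log2 fold change was 1.43 ± 0.35.

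Ahrr, the repressor that the receptor itself induces, was expressed at low levels. It stood at 1.13, 1.30 and 1.09 TPM in the high libraries 96, 49 and 98 of HDM_CP, against 0.48, 0.27 and 0.28 TPM in the low libraries 66, 45 and 67. In PBS_CP lungs Ahrr was at 0.94, 0.24 and 0.42 TPM in the high libraries 102, 76 and 101, against 0.41, 0.43 and 0.18 TPM in the low libraries 59, 75 and 58. The classes separated in HDM_CP and overlapped in PBS_CP, where library 76, with the second-highest Cyp1a1, had less Ahrr than 2 of the low libraries. For Ahrr the log2 fold change was 1.21 ± 0.35 (SE; unadjusted p = 0.0041, adjusted p = 1.00), with 1.74 within HDM_CP and 0.66 within PBS_CP. The test of the difference between these 2 groups gave an unadjusted p of 0.12.

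Cyp1a2, the neighbour of Cyp1a1 on chromosome 9 (57584220 to 57590986, minus strand) and best known from liver, was near the floor of the data. Its level was 1.24, 0.61 and 0.52 TPM in the high libraries 96, 49 and 98 of HDM_CP, against 0.28, 0.44 and 0 TPM in the low libraries 66, 45 and 67. PBS_CP lungs had 0.98, 0.81 and 0.69 TPM of Cyp1a2 in the high libraries 102, 76 and 101, against 0.18, 0.31 and 0 TPM in the low libraries 59, 75 and 58. Every high library was above every low library in both groups. The log2 fold change of 1.98 ± 0.70 (SE; unadjusted p = 0.014, adjusted p = 1.00) rests on few counts, and Cyp1a2 is a close paralog with which reads of Cyp1a1 may be shared.

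Nqo1, a quinone reductase driven by both the receptor and Nrf2, stood at 17.6, 11.1 and 8.00 TPM in the high libraries 96, 49 and 98 of HDM_CP, against 9.96, 10.3 and 6.13 TPM in the low libraries 66, 45 and 67. In PBS_CP lungs Nqo1 was at 27.9, 46.8 and 14.3 TPM in the high libraries 102, 76 and 101, against 16.4, 20.6 and 11.3 TPM in the low libraries 59, 75 and 58. The classes overlapped in both groups, and the log2 fold change was 0.67 ± 0.30 (SE; unadjusted p = 0.046, adjusted p = 1.00). Library PBS_CP 76 was also the highest of its group for Aldh3a1, an aldehyde dehydrogenase, with 47.7 TPM against 13.6 to 18.2 TPM in the other PBS_CP libraries. It was the highest for Ugt1a6a, a glucuronidating enzyme whose exons overlap those of its family, with 62.2 TPM against 30.3 to 37.8 TPM. The log2 fold changes between the classes were 0.53 ± 0.34 for Aldh3a1 and 0.18 ± 0.17 for Ugt1a6a (SE; unadjusted p = 0.14 and 0.31).

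Nfe2l2, which encodes Nrf2, differed by little, but its classes were apart. It stood at 137, 138 and 138 TPM in the high libraries 96, 49 and 98 of HDM_CP, against 134, 108 and 121 TPM in the low libraries 66, 45 and 67. PBS_CP lungs had 150, 159 and 145 TPM of Nfe2l2 in the high libraries 102, 76 and 101, against 137, 137 and 137 TPM in the low libraries 59, 75 and 58. All high libraries lay above all low ones in both groups. Nfe2l2 had a log2 fold change of 0.16 ± 0.05 (SE; unadjusted p = 0.0048, adjusted p = 1.00).

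Tiparp, an ADP-ribosyltransferase induced by the receptor that limits its activity, showed no such pattern, although its upstream window holds the core. It stood at 22.7, 22.7 and 23.7 TPM in the high libraries 96, 49 and 98 of HDM_CP, against 23.9, 17.5 and 23.0 TPM in the low libraries 66, 45 and 67. PBS_CP lungs had 22.1, 23.3 and 20.7 TPM of Tiparp in the high libraries 102, 76 and 101, against 24.6, 21.8 and 25.7 TPM in the low libraries 59, 75 and 58. The classes overlapped in both groups, and the log2 fold change of -0.01 ± 0.07 (SE) had a 95% interval of -0.14 to 0.13.

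**Figure D2:**
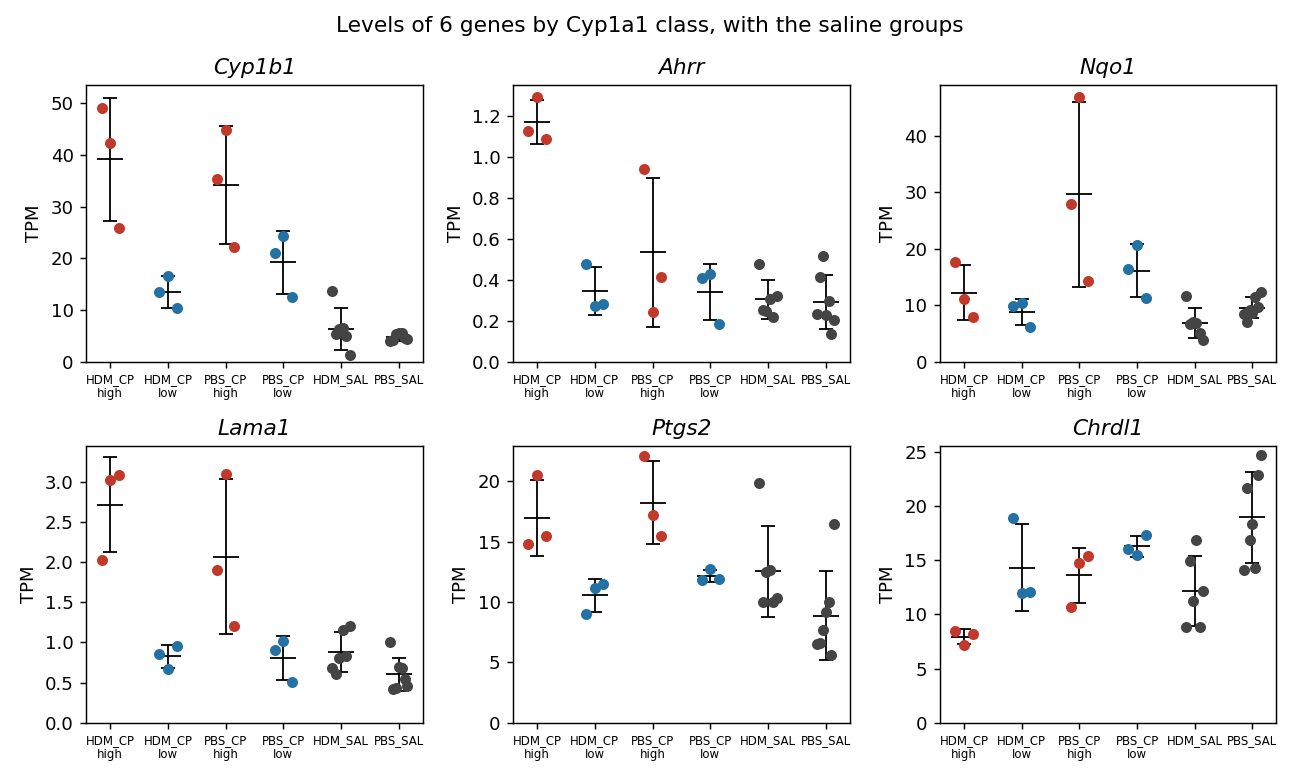
Level (TPM) of 6 genes in each library, as points by group and class with the mean and SD, and with the saline groups at the right. Cyp1b1 and Ahrr separate the classes in HDM_CP and overlap in PBS_CP, Nqo1 overlaps in both groups, and Lama1, Ptgs2 and Chrdl1 separate the classes in both.

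Over the whole list of 17 target genes, Cyp1a1 aside, 16 were measured above the low-count filter and 0 were called. Unadjusted p was under 0.05 for 5 of the 16, all higher (Cyp1b1, Ahrr, Cyp1a2, Nfe2l2 and Nqo1), beside 2.26% of all genes in that direction. The median log2 fold change of the 16 was 0.15, beside 0.00 over all genes, and 12 of the 16 were positive. Gsta1, Lpar6, Cyp2s1, Il22ra1, Hsd17b14, Arntl2 and Serpinb2 lay between -0.22 and 0.44 with unadjusted p of 0.094 or more, and Gsta1 has near-identical family members whose reads may be shared. Without the last run of library numbers, 5 of the 16 had an unadjusted p under 0.05, all higher, beside 1.21% of all genes in that direction. The median of the 16 was 0.17, but the 5 were in part other genes. Cyp1b1, Nqo1 and Nfe2l2 were among them, with Aldh3a1 (1.07 ± 0.32) and Ugt1a6a (0.55 ± 0.17), while Ahrr gave 0.97 ± 0.53 and Cyp1a2 1.83 ± 1.08 (SE; unadjusted p = 0.0999 and 0.124). Only high libraries 49 and 76 remain in that fit, and PBS_CP 76 stood apart from its group for Aldh3a1 and Ugt1a6a. With run as a covariate Ahrr gave 0.89 ± 0.52 and Cyp1a2 1.80 ± 0.98 (SE; unadjusted p = 0.12 and 0.094). The 6 genes of the receptor's own machinery (the receptor, its partners and its chaperones) had a median of -0.01 and 0 with an unadjusted p under 0.05.

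Since the 2 middle libraries and the order within classes are lost when libraries are cut into classes, the log2 level of each gene was also fitted as a slope on the log2 level of Cyp1a1 over all 14 combustion-exposed libraries. This called 0 of 22659 genes (0%), with 903 at an unadjusted p under 0.05 (3.99%), 513 of them higher (2.26%) and 390 lower (1.72%). A slope is the log2 change per doubling of Cyp1a1 TPM + 1. Cyp1b1 had a slope of 0.45 ± 0.08 (SE; unadjusted p = 4.7e-05), Ahrr 0.47 ± 0.11, Cyp1a2 0.82 ± 0.22, Nqo1 0.30 ± 0.08 and Aldh3a1 0.22 ± 0.10. Thus the slopes of these 5 genes were positive, and all lay below 1, the value of a gene that doubles with Cyp1a1. Of the 16 targets, 6 had an unadjusted p under 0.05, all with positive slopes.

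The 13 saline libraries were not used to choose the classes, and the same slope was fitted there. It called 0 of 22843 genes (0%), with a smallest adjusted p of 0.227, while 2622 genes had an unadjusted p under 0.05 (11.5%), 1386 with positive slopes (6.07%) and 1236 with negative ones (5.41%). Of 15 targets measured, 6 had an unadjusted p under 0.05, all positive, with a median slope of 0.41. Cyp1b1 had a slope of 1.25 ± 0.49 and Aldh3a1 of 0.58 ± 0.16 (SE). One library carried much of this: without HDM_SAL 54, which had the most Cyp1a1, 1031 genes (4.46%) and 0 of the 15 targets had an unadjusted p under 0.05, and the slope was 0.95 ± 0.86 for Cyp1b1 and -0.07 ± 0.30 for Nqo1. Library 54 also had 140653 TPM summed over 10 club cell genes and 1195 TPM summed over 16 ciliated cell genes, against 74781 to 118750 TPM and 758 to 1010 TPM in the other HDM_SAL libraries. The part of such airway tissue in the saline slopes was not tested beyond 1 fit: with club and ciliated cell scores as covariates, 484 genes (2.12%) and 0 of the 15 targets had an unadjusted p under 0.05.

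**Figure D3:**
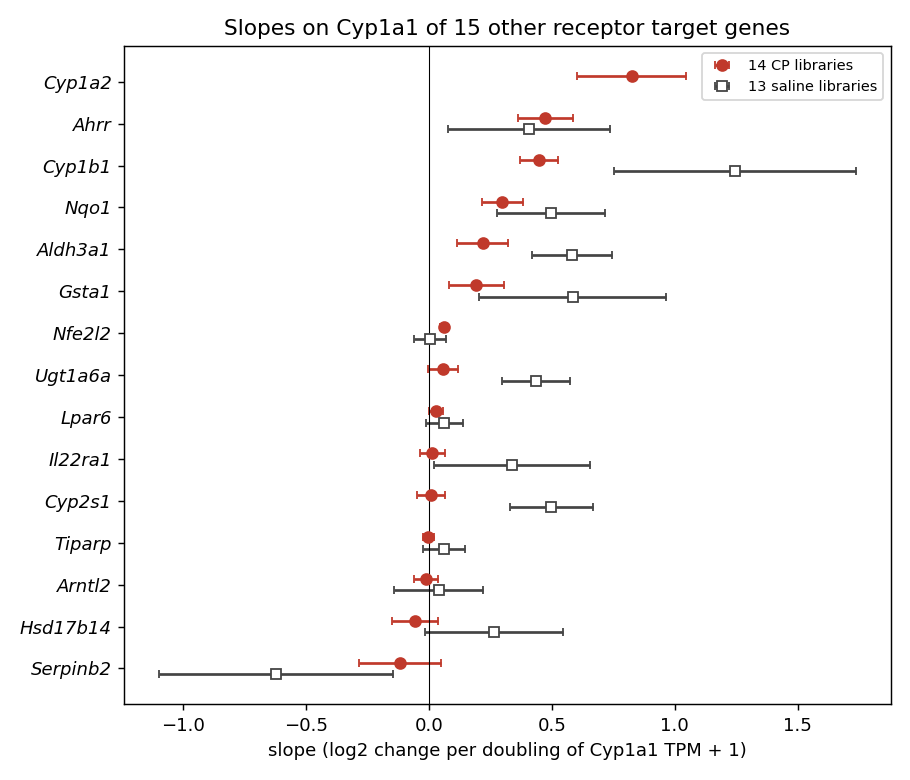
Slope of 15 other target genes on Cyp1a1 (log2 change per doubling of Cyp1a1 TPM + 1, with its SE), in the 14 combustion-exposed libraries (filled) and the 13 saline libraries (open). Cyp1b1, Ahrr, Nqo1 and Aldh3a1 have positive slopes in both, with wider errors in saline lungs. Cyp1a2 did not pass the filter on low counts in saline lungs.

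In whole lung, more cells of a type and more RNA per cell cannot be told apart, and this holds for every gene described here. Of all genes outside the list, Lama1 had the smallest p. It encodes the alpha chain of laminin-111, a basement membrane protein, and lies on chromosome 17 from 68004254 to 68129642. In HDM_CP lungs Lama1 stood at 2.03, 3.03 and 3.08 TPM in the high libraries 96, 49 and 98, against 0.86, 0.67 and 0.95 TPM in the low libraries 66, 45 and 67. PBS_CP lungs had 1.91, 3.10 and 1.20 TPM of Lama1 in the high libraries 102, 76 and 101, against 0.91, 1.02 and 0.50 TPM in the low libraries 59, 75 and 58. The classes did not overlap in either group, and the low libraries lay within or just above the saline ranges of 0.61 to 1.21 TPM in HDM_SAL and 0.42 to 1.00 TPM in PBS_SAL. Lama1 had a log2 fold change of 1.48 ± 0.23 (SE; 95% interval 1.03 to 1.94; unadjusted p = 1.9e-05, adjusted p = 0.43), with 1.63 within HDM_CP and 1.33 within PBS_CP. Leaving out PBS_CP 101 brought the adjusted p to 0.047, and DESeq2 gave 4.0e-07. In saline lungs the slope of Lama1 on Cyp1a1 was -0.08 ± 0.26, against 0.54 ± 0.08 in combustion-exposed lungs, and the difference of the 2 slopes was not tested.

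Ptgs2, which encodes the inducible cyclooxygenase that makes prostaglandins, stood at 14.8, 20.5 and 15.5 TPM in the high libraries 96, 49 and 98 of HDM_CP, against 9.01, 11.1 and 11.5 TPM in the low libraries 66, 45 and 67. In PBS_CP lungs it was at 22.1, 17.2 and 15.5 TPM in the high libraries 102, 76 and 101, against 11.8, 12.7 and 11.9 TPM in the low libraries 59, 75 and 58. The classes did not overlap in either group, while the saline groups spread over 9.97 to 19.9 TPM in HDM_SAL and 5.61 to 16.5 TPM in PBS_SAL. The log2 fold change of Ptgs2 was 0.62 ± 0.12 (SE; adjusted p = 0.50). Il4ra, the receptor chain shared by interleukins 4 and 13, had 0.30 ± 0.05, the netrin receptor Unc5b 0.36 ± 0.07, and the aldo-keto reductase Akr1b8, an Nrf2 target, 0.42 ± 0.08 (SE; adjusted p = 0.50 for each). Il4ra overlapped in PBS_CP, where low library 59 had 78.3 TPM and high library 102 had 77.8 TPM, and the other 2 did not overlap in either group. DESeq2 called Ptgs2 and Il4ra (adjusted p = 0.0040 each), Unc5b (0.0059) and Akr1b8 (0.0064).

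Lower in lungs with high Cyp1a1 was Chrdl1, an antagonist of bone morphogenetic proteins. It stood at 8.47, 7.15 and 8.19 TPM in the high libraries 96, 49 and 98 of HDM_CP, against 19.0, 11.9 and 12.1 TPM in the low libraries 66, 45 and 67. PBS_CP lungs had 10.7, 14.7 and 15.4 TPM of Chrdl1 in the high libraries 102, 76 and 101, against 16.0, 15.5 and 17.3 TPM in the low libraries 59, 75 and 58. The classes did not overlap in either group, though in PBS_CP high library 101 and low library 75 were nearly level, and saline lungs ranged from 8.82 to 16.9 TPM in HDM_SAL and from 14.1 to 24.7 TPM in PBS_SAL. Chrdl1 had a log2 fold change of -0.55 ± 0.14 (SE; adjusted p = 1.00), with -0.85 within HDM_CP and -0.24 within PBS_CP. Smaller were the differences of Vtn (vitronectin, -0.30 ± 0.08), Selenop (a selenium carrier, -0.24 ± 0.06) and Cd47 (a signal that restrains phagocytes, -0.18 ± 0.05), with an adjusted p of 1.00 each. DESeq2 called Cd47 (adjusted p = 0.038) and not Chrdl1, Vtn or Selenop.

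The 2 pairs of libraries within a run can be set beside these values, as log2 ratios of TPM + 1 with no test. In HDM_CP, library 49 over library 45 gave 2.23 for Cyp1a1, 1.31 for Cyp1b1, 0.85 for Ahrr, 1.27 for Lama1, 0.83 for Ptgs2 and -0.67 for Chrdl1. In PBS_CP, library 76 over library 75 gave 2.56 for Cyp1a1, 0.86 for Cyp1b1, -0.20 for Ahrr, 1.02 for Lama1, 0.41 for Ptgs2 and -0.07 for Chrdl1. Of these genes all but Ahrr thus differed in the same direction in both pairs as between the classes. Some other targets were less even: Nqo1 gave 0.09, Aldh3a1 -0.16 and Ugt1a6a -0.02 in the HDM_CP pair. In the PBS_CP pair they gave 1.14, 1.56 and 0.77. The fit with run as a covariate rests on the same high libraries 49 and 76. It gave a log2 fold change of 1.89 ± 0.25 for Lama1, 0.72 ± 0.16 for Ptgs2 and -0.57 ± 0.20 for Chrdl1 (SE).

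**Figure D4:**
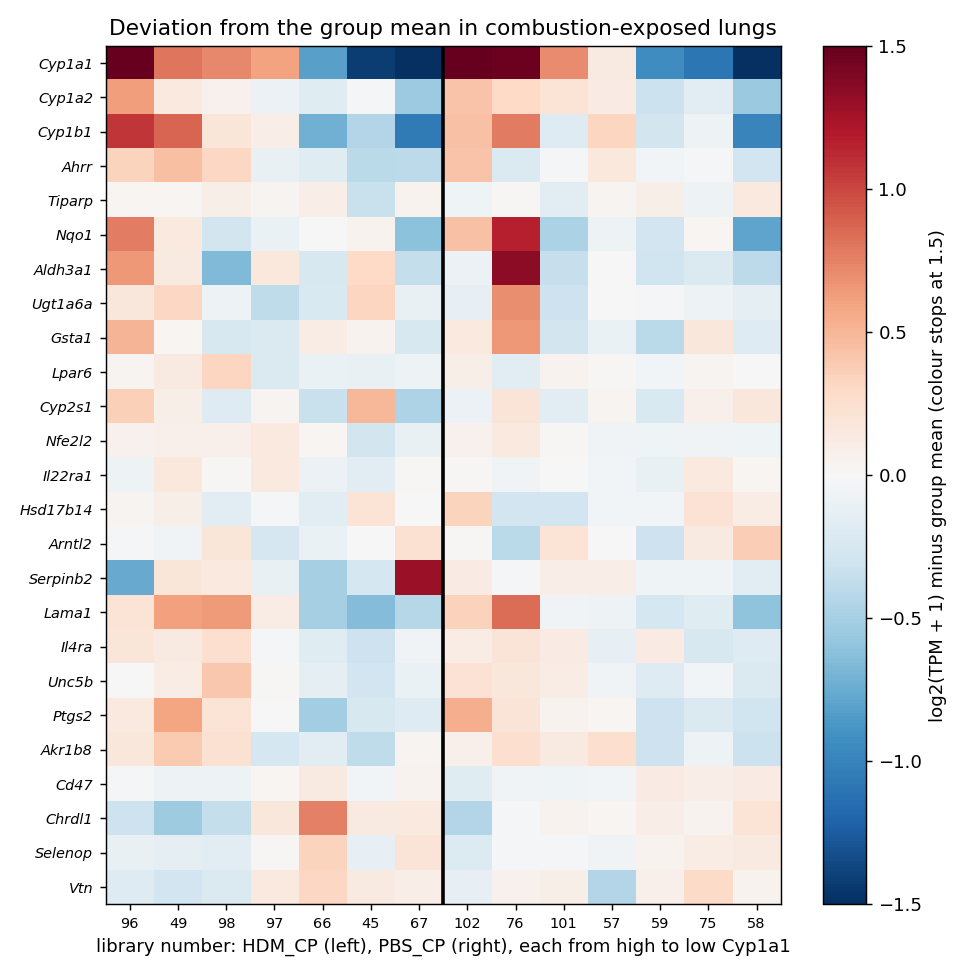
Deviation of each gene from its group mean (log2(TPM + 1), colour stops at 1.5) in the 14 combustion-exposed libraries, HDM_CP left and PBS_CP right, each from high to low Cyp1a1. Cyp1b1 and Lama1 turn from red to blue with Cyp1a1 in HDM_CP and less evenly in PBS_CP, where library 101 is already blue, Aldh3a1 and Ugt1a6a stand out in PBS_CP library 76, and Chrdl1 runs the other way.

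Genes of the Nrf2 and antioxidant list were mostly higher in lungs with high Cyp1a1, and none was called. Of 20 measured, 8 had an unadjusted p under 0.05 and all 8 were higher, 18 were positive and the median log2 fold change was 0.14, beside 2.26% of all genes higher at that p and 50.2% positive. Gclc, which makes the first step of glutathione synthesis, stood at 170 to 185 TPM in high and 93.9 to 153 TPM in low HDM_CP lungs, and at 107 to 165 TPM in high and 94.8 to 122 TPM in low PBS_CP lungs. Its log2 fold change was 0.42 ± 0.13, and that of the thioredoxin reductase Txnrd1 was 0.24 ± 0.08 (SE), while Hmox1 had 0.14 ± 0.09. The list's median was 0.16 within HDM_CP and 0.23 within PBS_CP. In saline lungs 8 of the 20 also had positive slopes on Cyp1a1 at an unadjusted p under 0.05, beside 6.07% of all genes. Without HDM_SAL 54, 1 of the 20 did, beside 2.54% of all genes. Leaving out the last run of library numbers left 49 and 76 as the only high libraries. There 10 of the 20 had an unadjusted p under 0.05, all higher, and 20 were positive, beside 1.21% of all genes higher at that p. Akr1b8 and Nqo1 belong to this list and have been described.

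The medians of the cytokine, acute phase and neutrophil lists were larger within HDM_CP than within PBS_CP lungs. Those of the type I interferon (-0.45 and 0.06) and eosinophil lists (-0.63 and -0.10) were lower within HDM_CP. The edgeR test of the difference between the groups called no gene. Within HDM_CP 1215 genes had an unadjusted p under 0.05 (5.35%) and 0 were called (0%), and within PBS_CP 772 genes (3.40%) and 0 (0%). The test of the difference between the 2 groups called 0 genes with edgeR (0%), with 943 at an unadjusted p under 0.05 (4.15%), and 10 with DESeq2. The 21 measured cytokines and neutrophil chemokines had a median log2 fold change of 0.58 within HDM_CP and -0.10 within PBS_CP. Over both groups 2 of them, Ptgs2 and Socs3, had an unadjusted p under 0.05, beside 4.11% of all genes. Socs3, a feedback inhibitor of cytokine signalling, had 0.41 ± 0.10, and Il33, an alarmin of epithelium, 0.45 ± 0.25 (SE), with 0.81 within HDM_CP and 0.08 within PBS_CP. Il6 and Ccl2 were spread widely and gave 0.22 ± 0.61 and 0.27 ± 0.41.

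Neutrophil genes were compared as markers of recruited cells. Mmp8, a neutrophil collagenase, stood at 9.57, 12.8 and 29.0 TPM in the high libraries 96, 49 and 98 of HDM_CP, against 3.03, 3.90 and 6.84 TPM in the low libraries 66, 45 and 67. PBS_CP lungs had 3.24, 2.11 and 2.45 TPM of Mmp8 in the high libraries 102, 76 and 101, against 3.42, 2.35 and 2.62 TPM in the low libraries 59, 75 and 58. The classes were apart in HDM_CP and overlapped in PBS_CP. The log2 fold change was 1.86 within HDM_CP and -0.09 within PBS_CP, and the difference between the groups had an unadjusted p of 0.0037 (adjusted p = 1.00). Lrg1, an acute phase glycoprotein of neutrophils and liver, gave 0.97 and 0.02, and Hdc, which makes histamine, 0.57 and -0.09 (unadjusted p of the difference 0.0046 and 0.00031, adjusted p = 1.00 each, edgeR). DESeq2 called the difference of Hdc (adjusted p = 0.033) and not that of Mmp8 or Lrg1. The defining genes S100a8 and S100a9 gave -0.05 ± 0.25 and -0.07 ± 0.29 over both groups (SE). These pooled values do not show how either gene differed within HDM_CP or within PBS_CP. Of the 18 measured, 14 were positive within HDM_CP (median 0.37, 4 higher at an unadjusted p under 0.05) and 2 within PBS_CP (median -0.19, 0 at that p in either direction). Of all genes, 2.68% were higher at that p within HDM_CP, and 3.40% reached it in either direction within PBS_CP. The median over all genes was 0.00 in each group. Summed over the list, neutrophil genes stood at 479 to 736 TPM in high and 408 to 533 TPM in low HDM_CP lungs, and at 296 to 385 TPM in high and 314 to 473 TPM in low PBS_CP lungs.

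Cd14, the lipopolysaccharide co-receptor of monocytes and macrophages, stood at 79.2 to 104 TPM in high and 44.8 to 69.2 TPM in low HDM_CP lungs, and at 33.3 to 39.5 TPM in high and 27.4 to 31.7 TPM in low PBS_CP lungs. The classes did not overlap in either group, and the log2 fold change was 0.54 ± 0.11 (SE; adjusted p = 0.65; DESeq2 adjusted p = 0.012). It was the only one of 22 monocyte and recruited macrophage genes with an unadjusted p under 0.05, beside 4.11% of all genes, and the list's median was 0.08. Gpnmb, a gene of lipid-laden macrophages, was at 12.8, 37.5 and 94.0 TPM in the high libraries 96, 49 and 98 of HDM_CP, against 10.9, 7.76 and 31.5 TPM in the low libraries 66, 45 and 67, with overlap. Apol7c, a dendritic cell gene, gave 0.42 ± 0.25 (SE). Siglecf, carried by alveolar macrophages and eosinophils, gave -0.48 ± 0.17 (SE; unadjusted p = 0.012). Fabp4, another alveolar macrophage gene, went the other way, with 0.47 ± 0.21 (SE; unadjusted p = 0.045). Of 13 alveolar macrophage genes measured, 4 were positive (median -0.11), and 1 was higher and 1 lower at an unadjusted p under 0.05. Among 6 eosinophil genes 1 was positive (median -0.33), and Siglecf alone passed that p, beside 4.11% of all genes.

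Acute phase and epithelial antimicrobial genes had a median of 0.35 over 15 measured, 4 of them with an unadjusted p under 0.05, all higher, beside 2.26% of all genes. The slope over the 14 combustion-exposed libraries gave 0 of 15 at that p. The antimicrobial lectin Reg3g stood at 13.3 to 24.3 TPM in high and 0.69 to 9.72 TPM in low HDM_CP lungs, and at 1.99 to 3.97 TPM in high and 0.31 to 4.32 TPM in low PBS_CP lungs. Its classes were apart in HDM_CP alone, but HDM_SAL lungs covered 0.64 to 44.4 TPM. The lipopolysaccharide-binding protein Lbp gave 0.26 ± 0.09 and lactoferrin, Ltf, 0.80 ± 0.35 (SE). Goblet cell genes, which make airway mucus, were positive in 11 of 11 measured, with a median of 0.77 within HDM_CP and 0.06 within PBS_CP. Over both groups 2 of the 11, Muc5ac and Muc5b, had an unadjusted p under 0.05, both higher, beside 2.26% of all genes, and without the last run or without HDM_CP 45 none did. Muc5ac stood at 18.3 to 23.3 TPM in high and 2.68 to 16.4 TPM in low HDM_CP lungs and under 1 TPM in all PBS_CP class libraries, and HDM_SAL lungs spread from 1.48 to 40.9 TPM.

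Matrix remodelling genes had a median of 0.35 over 20 measured, with 4 at an unadjusted p under 0.05, all higher, beside 2.26% of all genes in that direction. With run as a covariate 0 of the 20 passed that p and the median was 0.17. Without the last run of library numbers 1 passed, beside 1.21% of all genes higher, with a median of 0.31. Vcan, which encodes versican, stood at 4.003 to 5.04 TPM in high and 2.62 to 4.25 TPM in low HDM_CP lungs, and at 2.30 to 2.68 TPM in high and 1.74 to 3.05 TPM in low PBS_CP lungs, overlapping in both groups. Vcan had a log2 fold change of 0.40 ± 0.15, and Has2, a hyaluronan synthase, 0.89 ± 0.35. All 20 cell cycle genes were positive, beside 50.2% of all genes, with a median of 0.39. Birc5, Ube2c and Cdc20, which act in mitosis, gave 0.48 ± 0.19, 0.50 ± 0.21 and 0.53 ± 0.24 (SE). They were the 3 of the list with an unadjusted p under 0.05, beside 2.26% of all genes higher at that p. Without the last run, 0 of the 20 passed that p and the median was 0.26, beside 1.21% of all genes higher. Without the single library HDM_CP 45, which is of the first run, 0 passed too, with a median of 0.29, beside 2.99% of all genes higher.

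Of 12 unfolded protein response genes, 2 had an unadjusted p under 0.05, both higher, beside 2.26% of all genes: the disulfide isomerase Pdia4 gave 0.16 ± 0.04 and the chaperone cofactor Creld2 0.22 ± 0.10, while the chaperone Hspa5 gave 0.13 ± 0.07 (SE). Creld2 gave 0.04 ± 0.14 with run as a covariate and 0.04 ± 0.13 without the last run (SE), and its sign turned, to -0.05, with Rn18s-rs5 as a covariate. Type I interferon response genes gave 0 of 15 at that p and a median of -0.19, with -0.45 within HDM_CP and 0.06 within PBS_CP. Within HDM_CP 5 of the 15 were lower at an unadjusted p under 0.05, beside 2.67% of all genes, and within PBS_CP 1 was higher. Over both groups 5 of the 15 were lower at that p once HDM_CP 45 was left out, with a median of -0.29, beside 3.18% of all genes. Ifit2, Ifi44 and Ifit1 gave -0.37 ± 0.20, -0.32 ± 0.17 and -0.31 ± 0.23.

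**Figure D5:**
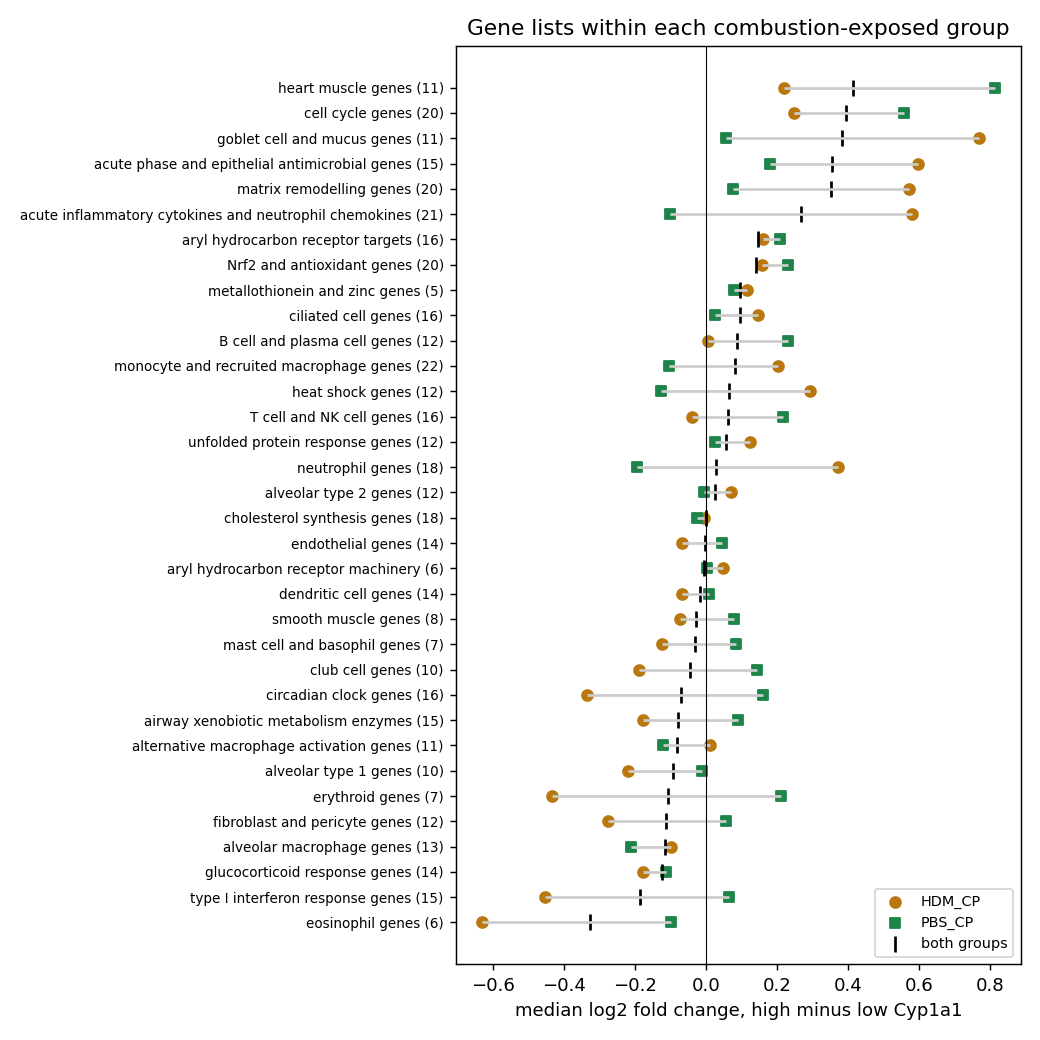
Median log2 fold change of high against low Cyp1a1 over the measured members of each of 34 gene lists (number measured in brackets), within HDM_CP (circles), within PBS_CP (squares) and over both (bars). Cytokine, acute phase, neutrophil, goblet and matrix lists sit further right in HDM_CP than in PBS_CP, and the type I interferon and eosinophil lists further left. The target and Nrf2 lists sit close together in both.

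Airway and vessel markers were compared in the same way. The 10 club cell genes summed to 45567 to 95994 TPM in high and 61893 to 118879 TPM in low HDM_CP lungs, and to 85019 to 94046 TPM in high and 78344 to 99638 TPM in low PBS_CP lungs, with 0 of 10 at an unadjusted p under 0.05. Of 16 ciliated cell genes 1, the axonemal dynein Dnah9, had an unadjusted p under 0.05 (0.23 ± 0.11), and of 14 endothelial genes 1, the endothelin receptor Ednrb (-0.25 ± 0.10). Both counts stand beside 4.11% of all genes at that p. Ciliated cell genes were positive in 14 of 16 (median 0.10) and endothelial genes in 7 of 14 (median -0.0035). In saline lungs 15 of the 16 ciliated and 6 of the 10 club cell genes had positive slopes on Cyp1a1 at an unadjusted p under 0.05, and 11 of the 14 endothelial genes had negative ones. Of all genes, 6.07% had positive and 5.41% negative slopes at that p. Without HDM_SAL 54 the counts became 1, 1 and 2, beside 2.54% of all genes with positive and 1.93% with negative slopes. Heart muscle genes, which can enter with the great vessels, had a median of 0.41 over 11 measured with 0 at an unadjusted p under 0.05, and summed to 310 TPM in the high library PBS_CP 102, against 91.8 to 153 TPM in the 6 low libraries. With run as a covariate that median was -0.54.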

How the data were processed

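The deposited tables hold estimated counts and TPM of 56941 genes in 27 libraries. Per the submitters' processing notes the authors used STAR (no version named), StringTie 2 and GRCm39, and the tables' name adds GENCODE M33. Whole numbers fill the deposited table of estimated counts. They sum to between 56.3 M and 84.5 M per library, more than the 20 M paired-end reads planned per the labels, so 1 count is not 1 read pair and no counting interval is given. The deposited TPM values were scaled by the authors and carry no depth. No source says that strand was used, and overlapping genes may share reads. The 310 genes without a symbol held 0.060% of counts.

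Estimated counts were rounded and fitted in edgeR 4.0.16 (R 4.3.3): filterByExpr with a minimum count of 10 by group, TMM scaling, robust quasi-likelihood F tests, two-sided, Benjamini-Hochberg adjustment over all genes but Cyp1a1 and a threshold of 0.05. The model had group and class over 12 libraries. Others had class within each group, their difference, or log2(TPM + 1) of Cyp1a1 as a slope, centred by group, in 14 combustion-exposed or 13 saline libraries. Levels are deposited TPM, and saline levels are given in TPM too. A standard error is the fold change divided by the root of F. The code was tested on simulated data. Alternatives used DESeq2 1.42.0, limma 3.58.1 (voom with sample quality weights on the counts, and on TPM with a pseudocount of 1 or 0.1), other scalings, filters and covariates, and each library left out.

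The genes named were the listed receptor targets, the 5 genes with the smallest p in each direction at a mean log2 CPM of at least 1 (predicted genes left out), list members with the smallest p, and Apol7c, Gpnmb, Clca1, Mmp8, Il6 and Ccl2. Hmox1, S100a8 and S100a9 were named after their values were seen. Some genes that this rule names are not reported here. The members and lists were chosen with earlier results of these data known.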

Additional observations from a re-analysis of the deposited data

Results flagged for a closer look

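In groups of 6 or 7, a library was set apart when its gap to the nearest other exceeded Dixon's 95% limit for the group's range. This was so in 18 of 133 sets of a gene and a group, where chance gives about 1 in 20. Among the receptor's targets and enzymes these were Cyp1a1 in HDM_SAL 54 (43.8 TPM), Cyp1a2 in HDM_SAL 50 (1.73 TPM), Tiparp in HDM_CP 45 (17.5 TPM, the lowest), Nqo1 in HDM_CP 96 (17.6 TPM), Aldh3a1 in PBS_CP 76 (47.7 TPM) and in HDM_SAL 54 (15.6 TPM), Ugt1a6a in PBS_CP 76 (62.2 TPM), Gsta1 in HDM_CP 96 (1.65 TPM) and Serpinb2 in HDM_CP 67 (5.03 TPM).

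Among the other genes they were Ptgs2 in HDM_SAL 54 (19.9 TPM) and in PBS_SAL 80 (16.5 TPM), Chrdl1 in PBS_CP 102 (10.7 TPM, the lowest), Gpnmb in HDM_CP 98 (94.0 TPM) and in PBS_SAL 105 (38.6 TPM), Ccl2 in HDM_SAL 99 (9.56 TPM) and in PBS_SAL 104 (5.37 TPM), and Rn18s-rs5 in PBS_CP 102 (4035 TPM). Clca1, a goblet cell gene that HDM raises, stood at 297 TPM in PBS_CP 57, against under 10 TPM in the other 6 PBS_CP libraries. That library is the middle one of its group and entered neither class, though it entered the slope over the 14 combustion-exposed libraries.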

How the results depend on the processing

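The comparison of the classes called 0 genes with edgeR and in 28 of 30 alternatives; DESeq2 called 20, and leaving out single libraries gave 0 to 1 (Lama1 without PBS_CP 101). Within HDM_CP leaving out a library gave 0 to 2, within PBS_CP 0 to 1, for the difference between them 0 to 1 (10 with DESeq2), and for the saline slope 0 to 1. The slope over combustion-exposed libraries called 0 in every alternative run. Of 2031 values of 68 named genes, 1979 kept direction and side of the threshold, 10 passed it and 42 changed sign, in 10 genes, of which Creld2 had an unadjusted p under 0.05 in the comparison of the classes. With run as a covariate the log2 fold change was 0.0322 for Tiparp, -0.0320 for Arntl2, 0.0526 for Serpinb2, 0.0393 for Scgb3a2 and -0.295 for Clca1. Without the last run it was 0.033 for Tiparp, -0.0468 for Arntl2, 0.0394 for Scgb3a2 and -0.179 for Clca1. With Rn18s-rs5 as a covariate it was 0.0308 for Tiparp, -0.0249 for Arntl2, -0.0492 for Creld2, -0.0208 for Clca1 and -0.0158 for Ccl2. With airway scores it was 0.0041 for Tiparp and -0.0298 for Cyp2s1, and with upper quartile scaling 0.0048 for Tiparp. On TPM Arntl2 gave -0.0670 with a pseudocount of 1, with or without a filter, and -0.0853 with 0.1, where Serpinb2 gave 0.0177, and the slope of Arntl2 was -0.0113. Leaving out single libraries gave -0.0589 to 0.0286 for Tiparp, -0.0627 to 0.216 for Cyp2s1, -0.0123 to 0.127 for Il22ra1, -0.0253 to 0.107 for Arntl2, -0.343 to 0.539 for Serpinb2, -0.396 to 0.0209 for Scgb3a2, -0.26 to 0.24 for Clca1 and -0.23 to 0.50 for Il6. The cause was not tested. Genes at an unadjusted p under 0.05 numbered 933, against 1474 with no filter, 606 with Rn18s-rs5 as a covariate, 540 without the last run and 1423 without HDM_CP 45. The settings without the last run, with Rn18s-rs5 and with airway scores in saline lungs were chosen after seeing the data. No paired analysis was possible because library numbers are not shared between groups. With 3 libraries a class and group, differences of low genes such as Ahrr and Cyp1a2 are limited by their few counts.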
